A study of Mus musculus with 40 samples.

Results

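Of the 39 primary tumors with RNA-sequencing values, 9 belong to the comparison described here: 5 4T1 primary tumors from anti-PD-1-treated mice (tumors 1 to 5) and 4 4T1 primary tumors from untreated mice (tumors 1, 2, 4 and 5). They were chosen by their labels alone, and all 14318 genes of the table were compared. 4T1 is a mouse mammary carcinoma cell line that serves as a model of triple-negative breast cancer. Lactating female BALB/c mice carried the tumors after luciferase-expressing 4T1 cells had been delivered through the teat into the third mammary glands, and tumors were taken at 5 w p.i. (weeks after inoculation). The treated mice had received 200 µg anti-PD-1 (clone RMP1-14 as a mouse IgG1e3) by weekly intraperitoneal injection, whereas the untreated mice had received neither antibody nor chitin, so that the antibody and the injections were not told apart by an isotype control. All mice shared the strain, the mammary gland after weaning as the site and a single tumor cell line. Whether some tumors of a group came from the glands of 1 mouse was not given in the sources used here, so p-values measure the spread between tumors. No values were available for untreated tumor 3, which the study states it left out as an outlier because its RNA was degraded.

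PD-1, encoded by Pdcd1, is an inhibitory receptor on activated T cells, and its ligand PD-L1, encoded by Cd274, is carried by tumor cells and myeloid cells. An antibody against PD-1 blocks this contact and leaves the T cells more active, which is known to release interferon gamma, to induce antigen presentation and T-cell-attracting chemokines, and to raise PD-L1 itself. 4T1 tumors are known for a strong myeloid infiltrate and for responding weakly to such antibodies.

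Expression is given as normalized counts, which are a gene's reads scaled for the depth of each tumor by a size factor, and differences between the group means are on the log2-like variance-stabilized scale of the deposited table. This scale compresses differences of genes with few reads. The untreated tumors had between 5105898 and 8732427 reads, with a median of 6295440, and the anti-PD-1-treated tumors had between 5723118 and 9898937, with a median of 6164483 (two-sided exact permutation test of the means, p = 0.556, where 0.0159 is the smallest p that 4 against 5 tumors allow). Pearson's r between any 2 of the tumors, across genes, ran from 0.923 to 0.992. Of the epithelial list, 14 of 14 genes were measured, with a summed normalized count of 24029 to 43296 in untreated and of 17849 to 56359 in anti-PD-1-treated tumors. These counts describe the tissue and were not a test of the carcinoma label.

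With limma, 0 of the 14318 genes (0%) differed between anti-PD-1-treated and untreated 4T1 primary tumors at an adjusted p of 0.05, and the smallest adjusted p was 0.517. At an unadjusted p of 0.05, 647 genes (4.52%) had a higher and 626 genes (4.37%) had a lower mean under anti-PD-1, together 1273 (8.89%). limma-voom on the recovered reads called 0 genes as well, with 465 genes higher and 645 lower at an unadjusted p of 0.05. The mean was higher for 7107 genes (49.6%) and lower for 7180 (50.1%). In 93 genes (0.65%) all treated tumors lay above all untreated ones, and in 159 genes (1.11%) all lay below. Single tumors moved these numbers. Leaving out treated tumor 2, 1464 genes were higher and 1267 lower at an unadjusted p of 0.05 and the groups did not overlap in 1046 and 953, and without untreated tumor 5 they did not overlap in 466 and 554. Counts without overlap can only stay or rise when a tumor is left out. Without untreated tumor 2, 341 genes were higher and 339 lower at that p, and without treated tumor 1 or 4, 417 or 427 were higher.

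Anti-PD-1-treated tumor 2 lay apart from the other 4, on the side of untreated tumors 1 and 2, along the first principal component of the 19 4T1 tumors of all treatments, which held 32.4% of the variance. Its score was 25.6 there, whereas treated tumors 1, 3, 4 and 5 had scores of -25.97, -31.8, -26.8 and -21.01. Untreated tumors 1, 2, 4 and 5 had scores of 17.7, 22.1, -6.17 and -6.82. Without treated tumor 2, limma called 80 genes (0.559%), 61 higher and 19 lower, and without any other single tumor it called 0. Tumor weights estimated from the data, which gave treated tumor 2 a weight of 0.308 and treated tumor 5 a weight of 4.22, led to 960 calls (6.7%, 580 higher and 380 lower), and a fit over both tumor models led to 60 (0.419%, 34 higher and 26 lower). In all, 26 genes were called in each of these 3 alternatives, and they included Cd2, Cd4, Cd5, Ms4a1, Cd79a, Cd79b, Pax5, Retnla, Cbr2, Hoxa6 and Prss8 (named after these calls were seen). All 80 genes called without treated tumor 2 were also called with tumor weights, which gave that tumor a low weight, so these alternatives are not separate evidence. The values below are given with treated tumor 2, and also without it where that moved a call or a count. That tumor was singled out because its values stood apart, so p-values without it are descriptive only.

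**Figure D1:**
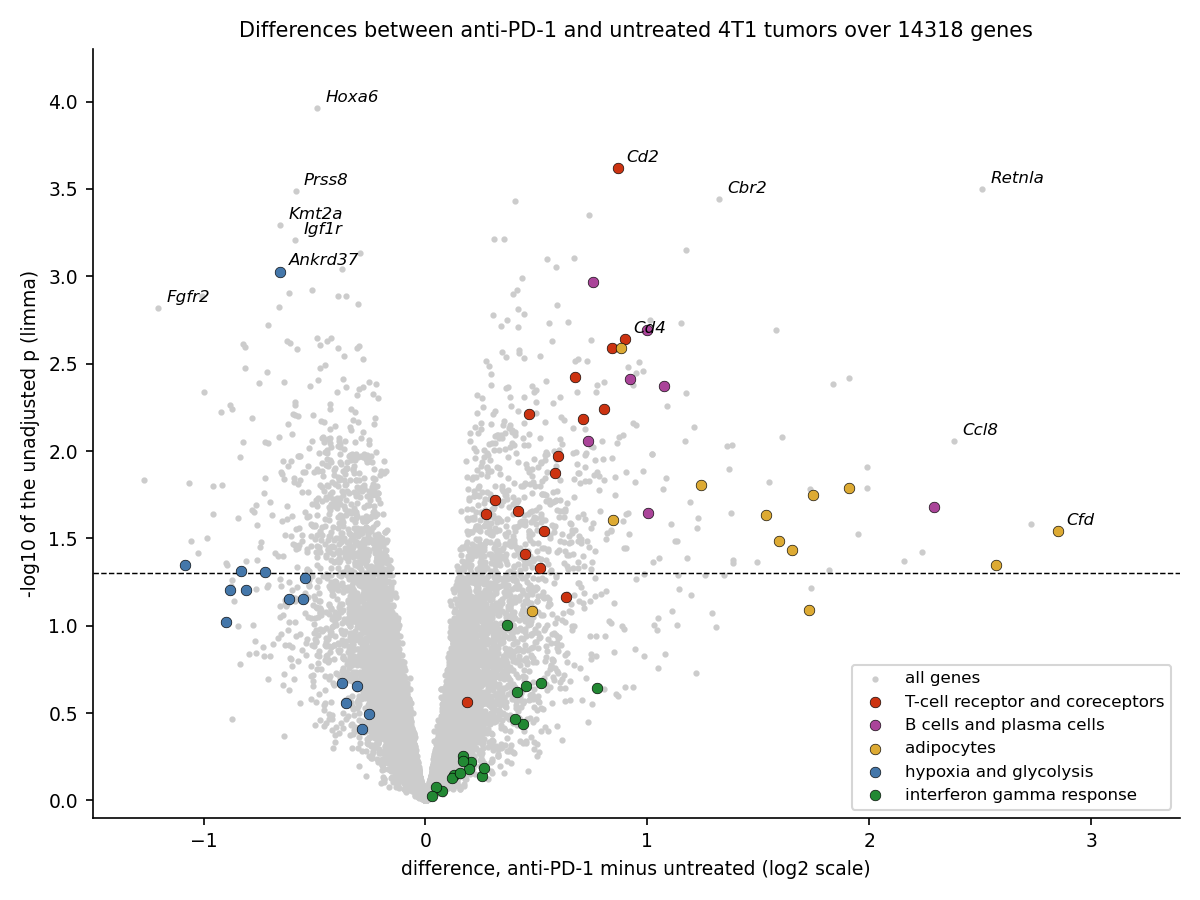
Difference between the group means (x axis, log2 scale, anti-PD-1 minus untreated) against −log10 of the unadjusted limma p (y axis) for 14318 genes, each a point, with 5 gene lists in color and a dashed line at the unadjusted threshold. T-cell, B-cell and adipocyte genes lie to the right and hypoxia genes to the left, while Hoxa6 has the smallest p and no gene passes the adjusted threshold.

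T-cell genes had higher means under anti-PD-1. All 17 measured genes of the T-cell receptor and its coreceptors had a higher mean, against 49.6% of all genes, and 15 of the 17 did so at an unadjusted p of 0.05, against 4.52% of all genes. The median difference of the list was 0.58, against -0.00053 over all genes, and none of its members passed the adjusted threshold. In bulk tumors, more or fewer cells of a type and more or less RNA per cell cannot be told apart.

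Cd2, an adhesion receptor of T and NK cells (chromosome 3, 101275908 to 101287939, mm10), had normalized counts of 11.8, 10.95, 26.4 and 49.8 in untreated tumors 1, 2, 4 and 5 and of 111, 42.8, 145, 102 and 136 in treated tumors 1 to 5. All treated tumors but tumor 2 lay above the highest untreated tumor, and the difference was 0.87 ± 0.19 (SE; limma, unadjusted p = 0.000240, adjusted p = 0.517). Cd4, the coreceptor of helper T cells, was counted at 21.3, 23.5, 37.4 and 73.4 in the untreated and at 183, 49.5, 189, 124 and 198 in the treated tumors. Again 4 of 5 treated tumors lay above the untreated range and tumor 2 within it, with a difference of 0.90 ± 0.25 (limma, unadjusted p = 0.00229). For the CD3 chains, treated tumor 2 was again the lowest of its group. Cd3g was counted at 125, 45.4, 62.9 and 195 against 229, 155, 394, 271 and 256, and Cd3e at 61.5, 42.2, 59.2 and 125.8 against 184, 89.7, 232, 158 and 220.3, in untreated against treated tumors. For both chains treated tumor 2 alone lay within the untreated range, and untreated tumor 5 was the highest of its group.

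For the coreceptor of cytotoxic T cells the groups overlapped more. Cd8a had normalized counts of 212, 113, 139 and 397 in untreated and of 319.9, 262, 633, 336 and 355 in treated tumors. Only treated tumor 3 lay above untreated tumor 5, and the difference of 0.64 ± 0.33 had an unadjusted p of 0.0683 in limma. Cd8b1, its partner chain, had 94.6, 34.4, 58.3 and 189 against 139, 135, 255, 143 and 146, with a difference of 0.52 (limma, unadjusted p = 0.0466). The kinase Lck and the adaptor Lat, which pass on the signal of the T-cell receptor, had differences of 0.81 and 0.47 in limma, with 4 of 5 treated tumors above the untreated range in each. In the fit without treated tumor 2, Cd2, Cd4 and Cd5 passed the adjusted threshold (limma, adjusted p = 0.0218, 0.0479 and 0.0363). There, 16 of the 17 members had an unadjusted p under 0.05, against 10.2% of all genes higher at that p. Of the 17, 12 had groups that did not overlap, against 7.31% of all genes. At an unadjusted p of 0.05, 9 of the 17 were higher without untreated tumor 1 or 2, against 443 or 341 of all genes. The list's median stayed between 0.47 and 0.74 over the 9 fits that each left out 1 tumor.

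**Figure D2:**
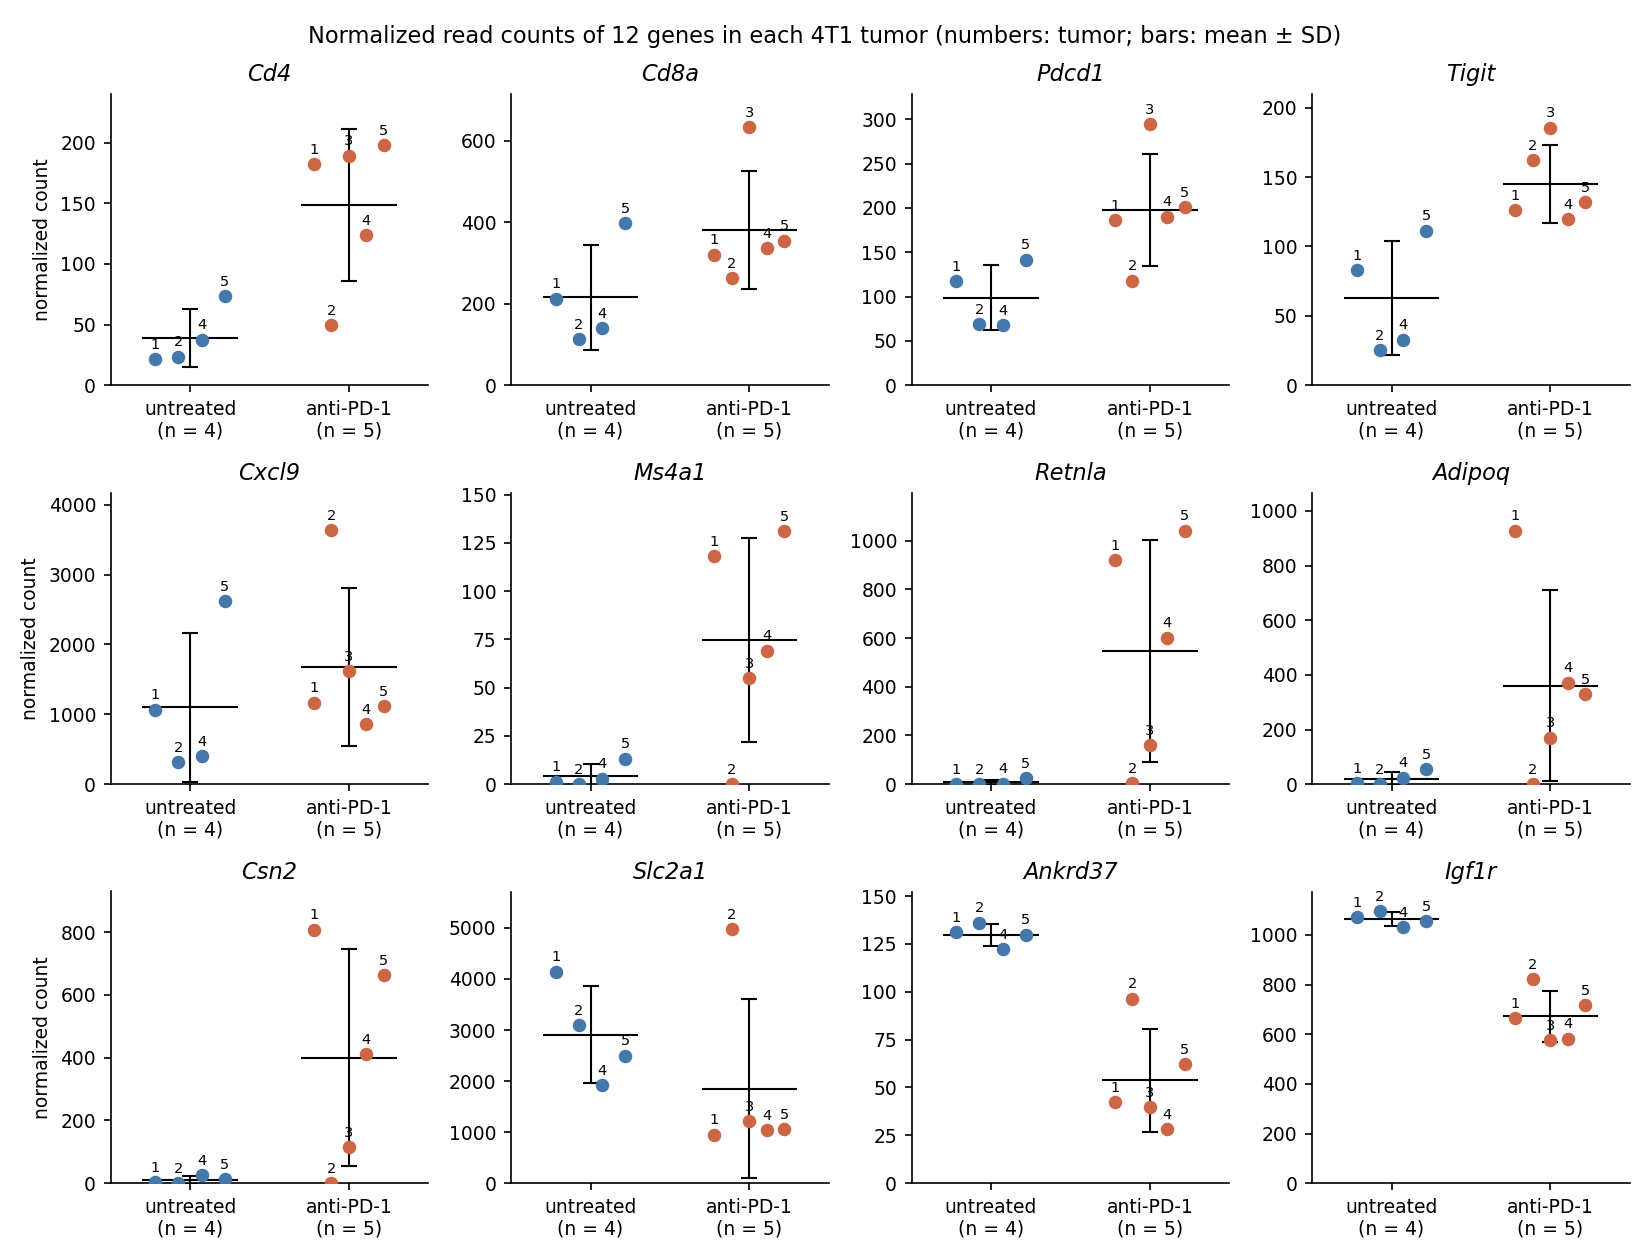
Normalized read counts (y axes, from 0) of 12 genes in each untreated (blue) and anti-PD-1-treated (orange) 4T1 primary tumor, with the tumor number above each point, the group mean as a line and its SD as a bar. Treated tumor 2 lies near the untreated tumors for Cd4, Ms4a1, Retnla, Adipoq and Csn2 and is the highest of all for Cxcl9 and Slc2a1, while the groups do not overlap for Tigit, Ankrd37 and Igf1r.

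Inhibitory receptors of T cells had higher means as well, the receptor that the antibody binds among them. All 14 measured genes of the checkpoint and exhaustion list had a higher mean, with a median difference of 0.28. At an unadjusted p of 0.05, 7 of them were higher, against 4.52% of all genes. The number was 4 without untreated tumor 2 or 4, against 341 or 644 of all genes. It was 9 without untreated tumor 5, against 6.69% of all genes in that fit. Pdcd1 (chromosome 1, 94038305 to 94052553) had normalized counts of 117, 68.8, 67.4 and 142 in untreated and of 186, 118, 294, 190.2 and 201 in treated tumors. The mean was 2.01 times that of untreated tumors, treated tumor 2 lay within the untreated range and the other 4 above it, and the difference was 0.59 ± 0.23 (limma, unadjusted p = 0.0190, adjusted p = 0.520). Tigit, a receptor that competes with a costimulatory partner for shared ligands, was counted at 82.8, 25.02, 32.8 and 111 in untreated and at 125.9, 162, 186, 119 and 132 in treated tumors. It was the only member of the T-cell and checkpoint lists in which all treated tumors, tumor 2 included, lay above all untreated ones, against 0.65% of all genes (difference 0.68 ± 0.20, limma, unadjusted p = 0.00307).

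Lag3, a receptor for MHC class II, had 66.2, 60.98, 77.4 and 174 in untreated and 183, 129, 230.3, 177 and 162 in treated tumors. Treated tumors 1, 3 and 4 lay above the untreated range, and untreated tumor 5 again stood with the treated ones (difference 0.55, limma, unadjusted p = 0.0105). Btla, an inhibitory receptor of B and T cells, and Tox, a transcription factor of exhausted T cells, had differences of 0.67 and 0.58, each with 4 of 5 treated tumors above the untreated range. Ctla4 was counted at 11.8, 1.56, 5.47 and 28.8 against 34.7, 17.4, 29.4, 23.03 and 32.98, a difference of 0.36 (limma, unadjusted p = 0.0179).

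The ligand and the receptor TIM-3 showed no such order of tumors. Cd274, which encodes PD-L1, had 662, 308, 374 and 1045 in untreated and 392, 1404, 805, 352 and 407 in treated tumors. Treated tumor 2 was the highest of all 9 and the other 4 treated tumors lay within the untreated range, so that the difference of 0.099 (95% confidence interval -0.70 to 0.90, limma, unadjusted p = 0.798) turned to -0.18 without treated tumor 2, and to -0.11 and -0.043 without untreated tumors 2 and 4. Havcr2, encoding TIM-3, had a difference of 0.077 (95% confidence interval -0.22 to 0.38), which turned to -0.036 without untreated tumor 2.

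Genes of regulatory T cells and of costimulatory receptors had a median difference of 0.39 in limma, with 10 of 11 measured members at a higher mean. At an unadjusted p of 0.05, 7 of them were higher, against 4.52% of all genes. The number was 4 without untreated tumor 2, against 341 of all genes. Foxp3, the transcription factor of regulatory T cells, was counted at 65.02, 75.1, 65.6 and 118 in untreated and at 147, 92.3, 133, 127 and 172 in treated tumors. Treated tumor 2 alone lay within the untreated range, and the difference was 0.39 ± 0.13 (limma, unadjusted p = 0.00896). The TNF receptor family members Cd27, Tnfrsf18 (GITR) and Tnfrsf4 (OX40) had differences of 0.57, 0.48 and 0.48, each with treated tumors 1, 3, 4 and 5 above the untreated range. For Tnfrsf18 and Tnfrsf4, treated tumor 2 lay below all untreated tumors. Without it, Tnfrsf18 was called (limma, adjusted p = 0.0477).

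The cytotoxic genes split. Of 19 measured members, 13 had a higher mean, 4 of them at an unadjusted p of 0.05, against 4.52% of all genes, and 6 a lower mean, 3 of them at that p, against 4.37%. Without untreated tumor 5, 9 were higher at that p, against 6.69% of all genes. Without untreated tumor 1, 0 were lower, against 575 of all genes. Ccl5, a chemokine made by activated T and NK cells, had 68.6, 60.98, 75.6 and 367 in untreated and 353, 483, 1255, 611 and 363 in treated tumors. Untreated tumor 5 was level with treated tumors 1 and 5 and the other 3 treated tumors, tumor 2 included, were higher, which gave a difference of 1.58 ± 0.44 (limma, unadjusted p = 0.00202). Gzmk and Nkg7, a granzyme and a granule membrane protein of killer lymphocytes, had differences of 0.46 and 0.68 (limma, unadjusted p = 0.00629 and 0.0119).

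Gzmc, Gzmd and Gzme were on the other side. These granzyme genes lie close together on chromosome 14 and are nearly alike in sequence, so reads could be split between them and the single values are uncertain. Gzmc had 236, 108, 28.2 and 152 in untreated and 16.7, 91.0, 10.2, 34.1 and 5.25 in treated tumors, a difference of -0.91 ± 0.34 (limma, unadjusted p = 0.0156), and treated tumors 1, 3 and 5 lay below all untreated ones. Gzmd and Gzme had differences of -0.96 and -0.77 (limma, unadjusted p = 0.0228 and 0.0203). Gzmb, the main granzyme of activated cytotoxic cells, ran from 18.2 to 351 in untreated and from 39.8 to 337 in treated tumors, with untreated tumors 1 and 5 and treated tumor 2 at the top of their groups. Its difference of -0.15 ± 0.45 (limma, unadjusted p = 0.752) turned to 0.083 without untreated tumor 1, 0.19 without untreated tumor 5 and 0.0073 without treated tumor 1. Ifng, the gene of interferon gamma, had 27.2, 4.69, 5.47 and 57.7 in untreated and 29.6, 68.3, 62.7, 19.6 and 22.5 in treated tumors, and treated tumors 2 and 3 were the highest (difference 0.31 ± 0.19, limma, unadjusted p = 0.123).

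The interferon gamma response was described with 19 genes, which interferon gamma is known to switch on through GAS and ISRE elements. The promoters of a pair of them, from 250 bases before to 50 after the RefSeq start site (GRCm38.p6, the build of mm10), show where such letters lie. Capitals mark a GAS core, TTCNNNGAA, or a core of the interferon-stimulated response element (GAAA, any 2 bases, GAAA), both searched on both strands. Irf8 is on the plus strand of chromosome 8 (120736108 to 120736407, 1 of its 2 windows) with 2 GAS cores, and Igtp, a GTPase that acts against intracellular parasites, is on the plus strand of chromosome 11 (58199306 to 58199605) with 1 of each core.
Irf8: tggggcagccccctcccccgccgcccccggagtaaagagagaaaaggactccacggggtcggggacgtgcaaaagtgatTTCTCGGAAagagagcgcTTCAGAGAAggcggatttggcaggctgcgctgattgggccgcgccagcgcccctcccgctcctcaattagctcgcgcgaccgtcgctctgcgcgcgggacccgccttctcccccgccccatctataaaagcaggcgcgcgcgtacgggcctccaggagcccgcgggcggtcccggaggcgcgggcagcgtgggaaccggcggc
Igtp: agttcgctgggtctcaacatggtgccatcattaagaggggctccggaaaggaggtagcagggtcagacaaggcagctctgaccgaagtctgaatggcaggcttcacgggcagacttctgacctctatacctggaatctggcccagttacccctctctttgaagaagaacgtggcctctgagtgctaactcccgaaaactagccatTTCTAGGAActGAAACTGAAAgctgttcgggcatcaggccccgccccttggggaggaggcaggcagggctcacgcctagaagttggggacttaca
Of the 19 genes, 12 had promoter windows, 15 in all. A GAS core was found in 6 of these windows (40%), against 8.3% of all 32851 promoter windows, and a response element core in 9 (60%), against 3.44% of all. These matches describe the letters only.

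The mean of all 19 was higher under anti-PD-1, but 0 of them reached an unadjusted p of 0.05 in limma, and the median difference was 0.21. Cxcl9, a chemokine that attracts activated T cells, had 1064, 317, 403 and 2620 in untreated and 1167, 3635, 1619, 857 and 1113 in treated tumors. Treated tumor 2 was the highest and untreated tumor 5 the next, and the spread within each group exceeded the difference of 0.78 ± 0.62 (limma, unadjusted p = 0.226). Irf8 had a difference of 0.37, and Cxcl10 of 0.44. This list depended on single tumors. Its median was 0.015 without treated tumor 2, with 11 of 19 means higher, -0.052 without untreated tumor 2, with 7 of 19 higher, and 0.015 without untreated tumor 4, with 10 of 19 higher. It was 0.54 without untreated tumor 5, where 4 of the 19 reached an unadjusted p of 0.05, against 6.69% of all genes higher at that p. With tumor weights it was -0.017, again with 7 of 19 higher. The mean value of the list was 9.37 to 11.09 in untreated and 9.98 to 11.20 in treated tumors.

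MHC class II genes, which present antigen to helper T cells and answer to interferon gamma through CIITA, had a median difference of 0.56. Of the 10 means, 10 were higher and 4 at an unadjusted p of 0.05, against 4.52% of all genes. H2-Eb1 had 8617, 4025, 4464 and 12500 in untreated and 11350, 10380, 11110, 15500 and 12140 in treated tumors, a difference of 0.84 ± 0.35 (limma, unadjusted p = 0.0287). All treated tumors lay above untreated tumors 1, 2 and 4, while untreated tumor 5 lay above all treated tumors but tumor 4. H2-Aa had a difference of 0.73. H2-Ob, a subunit of the peptide exchange regulator of B cells, had 7.09, 10.95, 20.95 and 27.5 against 78.4, 10.7, 42.2, 57.2 and 88.4, and for this member treated tumor 2 lay within the untreated range and the other 4 above it. Of the 10 members, 8 had an unadjusted p under 0.05 without untreated tumor 5, against 6.69% of all genes. The number was 1 without untreated tumor 2, untreated tumor 4 or treated tumor 4, against 341, 644 and 427 of all genes. MHC class I genes had a median difference of 0.21 with 16 of 16 means higher and 0 at an unadjusted p of 0.05. That number was 4 without untreated tumor 1, against 443 of all genes higher, and 5 without untreated tumor 5, against 6.69%. Without untreated tumor 4 their median was 0.043, with 13 of 16 means higher. In the reported fit, type I interferon response genes had a median of 0.0064 with 13 of 21 higher and 0 at that p, a median that lay between -0.074 and 0.18 when 1 tumor was left out.

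Of the 14 genes listed for B and plasma cells, 7 were measured, and all 7 had a higher mean at an unadjusted p of 0.05, against 4.52% of all genes, with a median difference of 1.00. This number was 5 without untreated tumor 1, untreated tumor 2 or treated tumor 4, against 443, 341 and 427 of all genes. It was 3 in limma-voom on the recovered reads, against 465 of all genes. Ms4a1, which encodes CD20 (chromosome 19, 11249679 to 11266149), had 1.18, 0, 2.73 and 13.1 in untreated and 118, 0, 55.03, 69.1 and 131 in treated tumors. It was at 0 in treated tumor 2, as in untreated tumor 2, and lay at 55.03 or more in the other treated tumors, above the 13.1 of untreated tumor 5. The difference was 1.00 ± 0.28 (limma, unadjusted p = 0.00202) and 1.32 without treated tumor 2 (limma, adjusted p = 0.00334). Cd79a and Cd79b, the signalling chains of the B-cell receptor, had 1.18, 6.26, 20.04 and 24.9 against 207, 2.68, 62.7, 142 and 216 and 4.73, 6.26, 10.02 and 20.97 against 163, 2.68, 65.3, 81.04 and 161. Pax5, the transcription factor of B-cell identity, had 1.18, 0, 3.64 and 1.31 against 78.4, 2.68, 11.5, 28.2 and 65.95. In all 3 genes treated tumors 1 and 5 were the highest and treated tumor 2 lay within or below the untreated range. Jchain, which joins the antibodies of plasma cells into polymers, was counted at 9.46, 32.8, 393 and 465 in untreated and at 1128, 109.7, 1248, 4894 and 1280 in treated tumors, with the highest count in treated tumor 4 (difference 2.29 ± 0.91, limma, unadjusted p = 0.0210).

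Genes of lymphoid organization lay on the same side. All 5 measured genes of the lymphoid chemokine list had a higher mean, 4 at an unadjusted p of 0.05, against 4.52% of all genes. Cxcl13, the chemokine that draws B cells into follicles, had 34.3, 1.56, 94.7 and 421 in untreated and 756, 82.98, 1086, 485 and 856 in treated tumors, a difference of 1.83 ± 0.56 (limma, unadjusted p = 0.00412). Ccr7, the receptor that guides cells to lymph nodes, had 23.6, 14.1, 23.7 and 64.2 against 147, 26.8, 133, 122 and 159.6, and Ltb, encoding lymphotoxin beta, 87.5, 75.1, 82.9 and 237 against 433, 84.3, 369.8, 353 and 468. In each of the 3, treated tumors 1, 3, 4 and 5 lay above all untreated tumors and treated tumor 2 below untreated tumor 5, and each passed the adjusted threshold without treated tumor 2 (limma, adjusted p = 0.0496, 0.0467 and 0.0467).

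Dendritic cell genes had a median difference of 0.38, with 11 of 12 means higher and 7 at an unadjusted p of 0.05, against 4.52% of all genes. Cd209a, a lectin of monocyte-derived and type 2 dendritic cells, had 0, 0, 6.38 and 28.8 in untreated and 73.2, 0, 78.1, 113 and 82.4 in treated tumors. Flt3, the receptor of a dendritic cell growth factor, had 18.9, 4.69, 18.2 and 69.5 against 102, 8.03, 98.5, 114 and 92.2. Both were lower in treated tumor 2 than in untreated tumors 4 and 5. Clec9a and Xcr1, markers of cross-presenting dendritic cells, had differences of 0.69 and 0.75 (limma, unadjusted p = 0.0238 and 0.0276), and Il12b, a subunit of IL-12, of 0.40. The count at an unadjusted p of 0.05 was 8 without treated tumor 2, against 10.2% of all genes, and 8 without untreated tumor 5, against 6.69%. It was only 1 without untreated tumor 2, against 341 of all genes. It was 2 without untreated tumor 1, treated tumor 1 or treated tumor 5, against 443, 417 and 496 of all genes. In limma-voom on the recovered reads it was 1, against 465 of all genes.

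Macrophage genes had higher means in 13 of 15 cases with a median difference of 0.41, yet 0 reached an unadjusted p of 0.05 in limma. Mrc1 and Cd163, receptors of tissue-resident and alternatively activated macrophages, had 506, 749, 2123 and 1591 against 2435, 511, 2479, 2517 and 2702 and 28.4, 42.2, 192 and 509 against 608, 21.4, 849.7, 1086 and 629.6. Treated tumor 2 was level with the lowest untreated tumors in both, whereas the other 4 treated tumors lay above the untreated range. Without treated tumor 2, 5 of the 15 were higher at an unadjusted p of 0.05, against 10.2% of all genes, and 9 had groups that did not overlap, against 7.31%.

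Retnla, which encodes RELMα, a secreted product of alternatively activated macrophages, was counted at 0, 0, 2.73 and 24.9 in untreated and 920, 4.02, 160, 601 and 1041 in treated tumors, with a difference of 2.51 ± 0.57 (limma, unadjusted p = 0.000317). Untreated tumors 1 and 2 were at 0 and treated tumor 2 was below untreated tumor 5, while the other 4 treated tumors lay above every untreated tumor. The difference was 3.12 without treated tumor 2 (limma, adjusted p = 0.00299). Ccl8, a monocyte-attracting chemokine, was counted at 367, 108, 440 and 1907 against 3492, 582, 5021, 5519 and 3702 (difference 2.38 ± 0.81, limma, unadjusted p = 0.00878), and Ccl22, a chemokine for regulatory T cells, at 28.4, 29.7, 36.4 and 99.6 against 221, 33.5, 197, 235 and 226. Both again had treated tumors 1, 3, 4 and 5 above the untreated range and treated tumor 2 within it. Of the 14 CC chemokines and receptors, 14 had a higher mean, with a median difference of 0.43. At an unadjusted p of 0.05, 3 were higher, against 4.52% of all genes, and 6 without treated tumor 2, against 10.2%.

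Neutrophil genes had means on both sides. The median difference of 14 measured genes was 0.11, and 2 were higher and 1 lower at an unadjusted p of 0.05, against 4.52% and 4.37% of all genes. These numbers were 5 and 2 without treated tumor 2, against 10.2% and 8.85% of all genes. Ltf, a granule protein that milk also holds, had 102, 76.6, 525 and 289.6 in untreated and 1601, 207, 810, 1682 and 1306 in treated tumors (difference 1.73), and Il1r2, a decoy receptor for IL-1, had 114, 100.1, 74.7 and 74.7 against 29.6, 76.3, 31.99, 29.9 and 36.7 (difference -0.51 ± 0.21, limma, unadjusted p = 0.0261). Among the neutrophil chemoattractants and growth factors, 3 of 11 means were higher. Cxcl2 and Cxcl1, which attract neutrophils, had 72.1, 64.1, 71.96 and 13.1 against 3.86, 127, 7.68, 10.2 and 10.5 and 254, 252, 93.8 and 106 against 50.1, 408, 11.5, 92.98 and 78.7. Treated tumors 1, 3, 4 and 5 lay below all untreated tumors in both and treated tumor 2 above all of them, so that the differences were -0.46 and -0.50 with unadjusted p of 0.377 and 0.371 in limma. Csf2, the gene of GM-CSF, had few counts, 3.55, 1.56, 7.29 and 2.62 against 7.71, 9.37, 7.68, 26.4 and 12.7 (difference 0.28 ± 0.10, limma, unadjusted p = 0.0138). With Tigit, it was 1 of 2 members of the 26 lists in which all treated tumors lay above all untreated ones, as did 93 of all 14318 genes (0.65%). Tnf had a difference of 0.26 (limma, unadjusted p = 0.0198). The chitinase-like gene Chil1 had 15.4, 32.8, 61.9 and 39.3 against 207, 20.1, 98.5, 144 and 125.9 (difference 0.69 ± 0.32, limma, unadjusted p = 0.0466), with treated tumor 2 among the untreated tumors, and Chil3 a difference of 0.29 ± 0.71. Of 7 chitinases and chitinase-like genes listed, 4 were measured, 2 with a higher and 2 with a lower mean. Their median difference was 0.13, and 1 was higher at an unadjusted p of 0.05, against 4.52% of all genes.

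Genes of fat and of milk had the highest median differences of the 26 lists. All 12 adipocyte genes had a higher mean, 10 of them at an unadjusted p of 0.05, against 4.52% of all genes, with a median difference of 1.62. Adipoq, the hormone adiponectin, had 3.55, 0, 23.7 and 53.7 in untreated and 928, 0, 170.2, 372 and 329.8 in treated tumors. Cfd, the complement factor and fat cell product adipsin, had 23.6, 9.38, 109 and 494 against 6268, 2.68, 1185, 3333 and 2469, which gave the widest difference of all genes, 2.85 ± 1.20 (limma, unadjusted p = 0.0289). Treated tumor 2 was the lowest of all 9 tumors for Cfd and, like untreated tumor 2, at 0 for Adipoq, while the other 4 treated tumors lay above every untreated tumor. Lep, encoding leptin, had 0, 0, 1.82 and 0 against 117, 0, 15.4, 46.9 and 36.7, with reads in only 1 untreated tumor, and was called without treated tumor 2 (limma, adjusted p = 0.0298). Scd1, a desaturase of fatty acid synthesis, had 382, 338, 620.3 and 3159 against 23300, 422, 5080, 13500 and 6918.

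The 4 measured genes of the list for lactating mammary epithelium, out of 10 listed, all had a higher mean at an unadjusted p of 0.05, against 4.52% of all genes. Their median difference was 1.97. Csn2, beta casein, had 2.36, 0, 25.5 and 13.1 in untreated and 808, 0, 114, 411 and 663 in treated tumors, and Csn3, kappa casein, 2.36, 18.8, 107 and 6.55 against 1065, 4.02, 265, 612 and 582. The difference was 1.99 ± 0.75 for Csn2 and 1.99 ± 0.72 for Csn3 (limma, unadjusted p = 0.0163 and 0.0124), and treated tumor 2 lay at 0, like untreated tumor 2, for Csn2 and next to the lowest for Csn3. The number of milk genes at that p was 2 without untreated tumor 1, 2 or 5, against 443, 341 and 958 of all genes. It was also 2 without treated tumor 1, 4 or 5, against 417, 427 and 496 of all genes. On the recovered reads limma-voom gave 0, against 465 of all genes. The summed normalized count of the adipocyte list was 369 to 2123 in untreated tumors, 228 in treated tumor 2 and 4748 to 23782 in the other treated tumors. For the milk list it was 4.73 to 241 in untreated tumors, 5.35 in treated tumor 2 and 618 to 3017 in the others. Treated tumors 1, 3, 4 and 5, which had the highest list means of all 9 tumors for T-cell, B-cell, dendritic cell and macrophage genes, also had the highest list means for fat and milk genes, and the part of this tissue in those results was not tested. Without treated tumor 2, all 12 adipocyte genes had an unadjusted p under 0.05, against 10.2% of all genes higher at that p. Of the 12, 10 had groups that did not overlap, against 7.31% of all genes. At an unadjusted p of 0.05, 2 adipocyte genes were higher without treated tumor 1, against 417 of all genes. The number was 5 without treated tumor 4, against 427, and 3 without untreated tumor 2, against 341. It was 4 without untreated tumor 1, against 443, and 2 in limma-voom on the recovered reads, against 465.

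**Figure D3:**
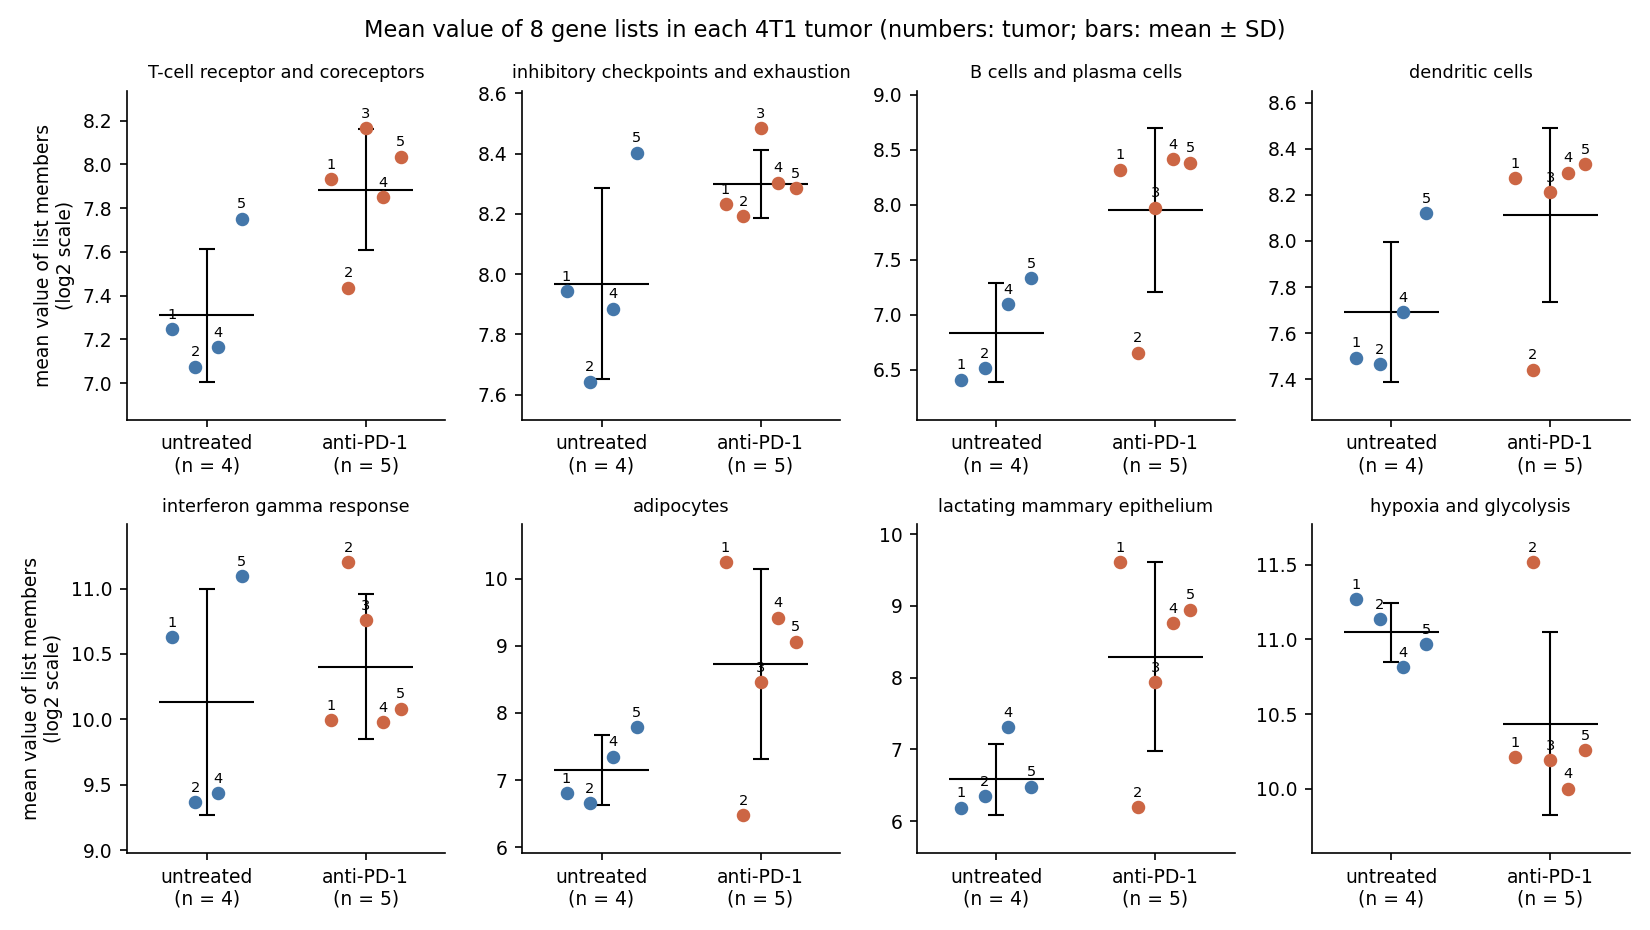
Mean value of the members of 8 gene lists (y axes, log2 scale, not from 0) in each untreated (blue) and anti-PD-1-treated (orange) 4T1 primary tumor, with tumor numbers, group means as lines and SDs as bars. Treated tumor 2 has a mean of 6.48 for adipocytes, below all untreated tumors, and of 11.52 for hypoxia and glycolysis, above all of them, while the other 4 treated tumors lie on the opposite side of the untreated tumors in both panels.

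Hypoxia and glycolysis genes had lower means. These genes are known targets of HIF-1, which binds the letters ACGTG or GCGTG where oxygen is scarce. The promoters of 3 of the genes named here are shown with these letters in capitals on either strand, from the same RefSeq windows (minus strand of chromosome 8, 45999801 to 46000100, for Ankrd37, minus strand of chromosome 7, 138909457 to 138909756, for Bnip3 and plus strand of chromosome 4, 119108495 to 119108794, for Slc2a1).
Ankrd37: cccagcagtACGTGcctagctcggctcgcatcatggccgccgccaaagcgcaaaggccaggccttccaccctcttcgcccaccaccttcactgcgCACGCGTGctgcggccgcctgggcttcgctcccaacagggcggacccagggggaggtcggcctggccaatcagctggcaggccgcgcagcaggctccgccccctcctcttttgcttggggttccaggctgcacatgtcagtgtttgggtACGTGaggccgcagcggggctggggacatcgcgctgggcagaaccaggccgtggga
Bnip3: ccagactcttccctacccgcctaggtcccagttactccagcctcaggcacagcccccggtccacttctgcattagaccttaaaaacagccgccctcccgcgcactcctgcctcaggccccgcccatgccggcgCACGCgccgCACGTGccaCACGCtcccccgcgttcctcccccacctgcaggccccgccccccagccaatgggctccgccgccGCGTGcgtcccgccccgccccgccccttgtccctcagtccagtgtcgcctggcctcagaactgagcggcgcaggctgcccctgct
Slc2a1: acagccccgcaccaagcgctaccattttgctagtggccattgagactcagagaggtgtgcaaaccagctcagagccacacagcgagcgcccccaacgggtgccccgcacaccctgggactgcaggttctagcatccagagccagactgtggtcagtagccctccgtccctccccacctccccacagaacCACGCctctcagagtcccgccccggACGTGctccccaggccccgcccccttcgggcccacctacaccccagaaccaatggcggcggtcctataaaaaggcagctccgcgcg
Windows were given for 14 of the 15 genes, 21 in all. ACGTG was found in 11 of them (52.4%), against 19.6% of all windows, and GCGTG in 12 (57.1%), against 32.4%. This motif was chosen after the values had been seen, and adjoining or overlapping matches, such as CACGTG read on both strands, fall into 1 run of capitals.

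All 15 measured genes of the list had a lower mean under anti-PD-1, against 50.1% of all genes, and 4 did so at an unadjusted p of 0.05, against 4.37% of all genes. The median difference was -0.61 and stayed below 0 in every alternative run. Ankrd37, a small ankyrin repeat protein induced by HIF-1, had 131, 136, 122 and 129.7 in untreated and 42.4, 96.4, 39.7, 28.2 and 62.2 in treated tumors. Its 4 untreated tumors lay within a narrow range and all treated tumors below it, tumor 2 being the highest of them (difference -0.65 ± 0.17, limma, unadjusted p = 0.000941, and adjusted p = 0.0477 without treated tumor 2). Slc2a1, the glucose transporter GLUT1, had 4138, 3090, 1918 and 2498 against 947, 4980, 1211, 1036 and 1058. Here treated tumor 2 exceeded every untreated tumor and the other 4 lay below every untreated tumor, with a difference of -0.88 ± 0.44 (limma, unadjusted p = 0.0624).

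Ndrg1, a stress-induced gene, Bnip3, a mitophagy receptor, and Pgk1, a glycolytic enzyme, had differences of -1.08, -0.83 and -0.72 (limma, unadjusted p = 0.0447, 0.0489 and 0.0490). Ndrg1 was counted at 6727, 4918, 2764 and 5401 in untreated and at 1631, 8767, 1392, 1544 and 1457 in treated tumors, so that the count of treated tumor 2 was more than that of any other tumor. The other 4 treated tumors lay below the untreated range in all 3 genes. Without treated tumor 2, 12 of the 15 genes had a lower mean at an unadjusted p of 0.05, against 8.85% of all genes, and 10 had groups that did not overlap, against 6.66%. Without treated tumor 1, 3 or 4, or without untreated tumor 1, only 1 of the 15 had a lower mean at that p. Over all genes, 459, 447, 435 and 575 did so in those fits, in that order.

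Several genes outside these lists had lower counts in treated tumor 2 as in the other treated tumors. Hoxa6, a homeobox gene (chromosome 6, 52204858 to 52208672), had 136, 202, 166 and 117 in untreated and 88.7, 84.3, 80.6, 61.4 and 97.4 in treated tumors, without overlap, and the smallest p of all genes (difference -0.49 ± 0.10, limma, unadjusted p = 0.000109, adjusted p = 0.517). Prss8, an epithelial membrane protease, had 190.3, 175, 234 and 172 against 96.4, 125.8, 62.7, 106 and 93.7. Igf1r, the receptor of insulin-like growth factor 1, had 1071, 1096, 1031 and 1055 against 666, 820.4, 576, 582 and 717, a narrow range of untreated tumors with all treated tumors below it (difference -0.59 ± 0.14, limma, unadjusted p = 0.000618). Fgfr2, a fibroblast growth factor receptor of epithelial cells, had 995, 1479, 1884 and 1004 against 711, 913, 223, 338 and 529.9, and Dusp6, a phosphatase that is induced by and restrains ERK signalling, 3739, 3654, 3188 and 2835 against 2110, 2286, 1378, 2353 and 2371. Their differences were -1.21 ± 0.32 and -0.66 ± 0.18 (limma, unadjusted p = 0.00153 and 0.00150), and in both all treated tumors lay below all untreated ones. The chromatin regulator Kmt2a had a difference of -0.66 without overlap, and the cytoskeletal gene Add2 one of -1.01 with 4 of 5 treated tumors below the untreated range.

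Among genes with a higher mean, Cbr2, a carbonyl reductase, had 48.5, 43.8, 210.4 and 259.5 in untreated and 436, 285, 458, 615 and 510.4 in treated tumors, with all treated tumors above all untreated ones (difference 1.32 ± 0.30, limma, unadjusted p = 0.000362). Hsd11b1, which regenerates active glucocorticoid and is found in fat and in macrophages, had 22.5, 10.95, 32.8 and 95.7 against 251, 41.5, 192, 295 and 243, with treated tumor 2 within the untreated range (difference 1.18, limma, unadjusted p = 0.000704).

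Epithelial genes, which the tumor cells express, had a lower mean in 11 of 14 cases with a median difference of -0.18. Cldn3, a tight junction protein, had 891, 791, 758 and 1080 in untreated against 247, 767, 397, 1105 and 239.8 in treated tumors (difference -0.74, limma, unadjusted p = 0.0354). It was the only member at an unadjusted p of 0.05, against 4.37% of all genes lower at that p, whereas Krt19 had a difference of 0.62 (limma, unadjusted p = 0.0841). Proliferation genes had a median difference of 0.0031 with 9 of 18 means higher and 0 at an unadjusted p of 0.05, and Mki67 one of -0.17 (95% confidence interval -0.79 to 0.45). Of 13 immediate-early genes, 12 had a lower mean, 2 of them at an unadjusted p of 0.05, against 4.37% of all genes. Fosb had 43.7, 116, 129 and 77.3 against 32.1, 37.5, 61.4, 38.4 and 31.5. Fibroblast genes had a median of 0.25 (12 of 14 higher), endothelial genes of -0.14 (3 of 13 higher) and skeletal muscle genes of 0.16 (8 of 12 higher), with 0 genes at an unadjusted p of 0.05 in each of these 3 lists. The muscle list ran from a summed normalized count of 197 to 6416 in untreated and of 495 to 12345 in treated tumors. Among 13 clock genes, Bmal1 had a difference of 0.31 and Nr1d2, a repressor of the clock, one of -0.44 (limma, unadjusted p = 0.0241 and 0.00991), and the median was -0.049. The medians of the fibroblast, endothelial, muscle, proliferation and clock lists each had the other sign without some single tumor.

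The antibody was also given to 4T1-bearing mice that received chitin and to mice with tumors of 66cl4, another mouse mammary carcinoma line. These comparisons use other tumors. Chitin + anti-PD-1 against chitin in 4T1 had 0 genes at an adjusted p of 0.05 and 445 (3.11%) at an unadjusted p of 0.05 in limma. Anti-PD-1 against untreated in 66cl4 also had 0 genes, with 767 (5.36%) at an unadjusted p of 0.05. The difference between the anti-PD-1 comparisons without and with chitin passed the threshold for 0 of 14318 genes in limma (648, 4.53%, at an unadjusted p of 0.05), and that between 4T1 and 66cl4 for 0 as well (1041, 7.27%, at an unadjusted p of 0.05). Without 4T1 anti-PD-1-treated tumor 2, these numbers at an adjusted p of 0.05 were 1 and 86.

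The T-cell list had a median difference of 0.58 without chitin, of -0.10 with chitin and of 0.090 in 66cl4. Its mean was higher in 2 of 17 genes with chitin, against 51.8% of all genes, and in 17 of 17 in 66cl4, against 51.1%. For the adipocyte list the values were 1.62, -0.0093 and 0.25, for the B-cell list 1.00, -0.12 and 0.078, and for the hypoxia list -0.61, 0.14 and -0.12, where 13 of 15 hypoxia genes had a higher mean with chitin and 0 of 15 in 66cl4. The interferon gamma list had a median of 0.28 in 66cl4, where Cxcl9 had a difference of 0.83 against 0.78 in 4T1. Whether the lists differed between these comparisons was not tested. Pdcd1 had a difference of -0.19 under chitin and of 0.092 in 66cl4, and the difference between the comparisons was 0.78 ± 0.31 for chitin (limma, unadjusted p = 0.0229, adjusted p = 0.927). Tigit had 0.25 and 0.039, and Ankrd37 had 0.083 and -0.099.

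**Figure D4:**
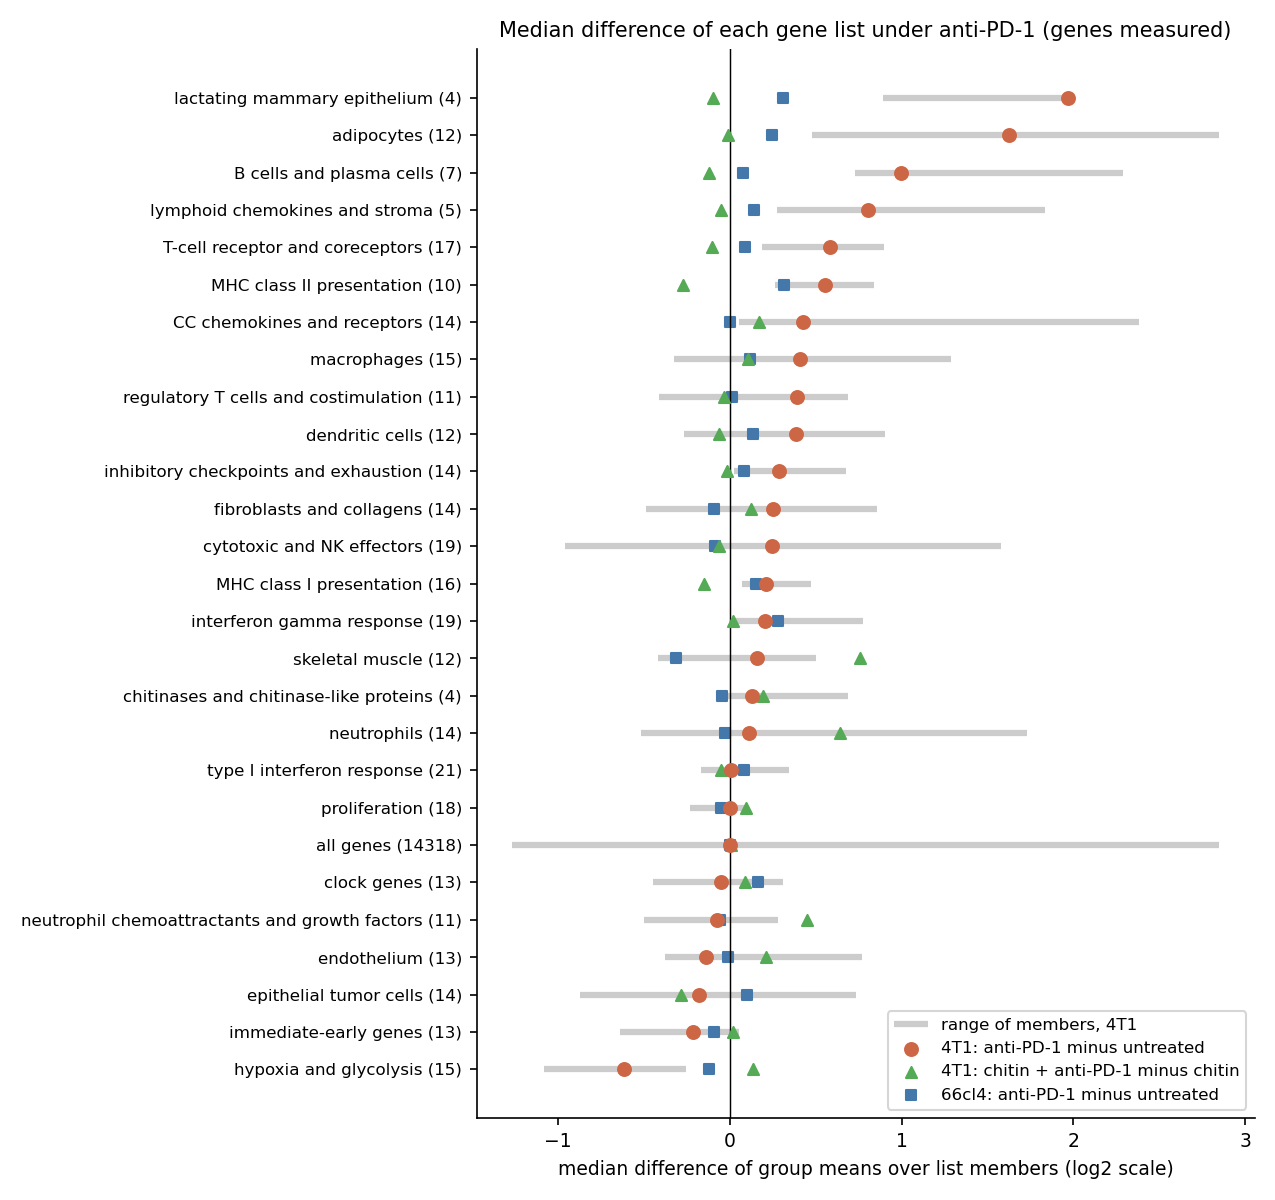
Median difference of the members of each gene list (x axis, log2 scale; the number of measured genes in brackets) for anti-PD-1 minus untreated in 4T1 (circles), chitin + anti-PD-1 minus chitin in 4T1 (triangles) and anti-PD-1 minus untreated in 66cl4 (squares), with the range of the members in 4T1 as grey bars. Milk (1.97), adipocyte (1.62) and B-cell (1.00) lists have the highest and the hypoxia list (-0.61) the lowest median in 4T1, while the medians of the other comparisons lie nearer to 0 for these 4 lists.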

How the data were processed

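RNA of flash-frozen primary tumors was sequenced as stranded libraries. Per the submitters' processing notes and the study's methods, the authors aligned reads to mm10 with HISAT2, counted them per gene with summarizeOverlaps and deposited log2 values from the variance-stabilizing transformation of DESeq2 (versions not given in the sources used here). A single table holds 14318 genes for 39 tumors, 14259 of them with a symbol, and no comparison columns. Inverting the transformation gave 100% whole reads within 0.001 of a read, from which read totals, normalized counts and reads for limma-voom were taken. These were read as tumor depth over listed genes only. The deposited values were compared with limma 3.58.1 (R 4.3.3), using all 4T1 tumors, a mean-variance trend and Benjamini-Hochberg adjustment over all genes. The spread was shared with chitin-treated 4T1 tumors, 66cl4 tumors had a fit of their own, and the difference between models came from a fit over both. The fits were tested on simulated data.

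Members and gene lists were chosen with earlier results of these data known. Genes named are those the study names, up to 8 per list by smallest p, the 15 leading genes in each direction and the 5 with the largest difference, from which the text takes a part, and others are said to have been chosen after their values were seen. Promoters are RefSeq windows of GRCm38.p6 (250 bases before to 50 after a start). Alternatives were tumor weights, 1 fit over both models, no trend, equal depth, voom, median centring, quantile normalization, 2 groups only, a replicate block, a filter on the lowest 25% of genes and leaving out each tumor. List descriptions carry no test. Tables and plots were made with Python 3.11.15.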

Additional observations from a re-analysis of the deposited data

Results flagged for a closer look

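Among 230 values tested within a group, that is the named genes and the list means, 28 had a highest or lowest tumor whose gap to the nearest other tumor, as a share of the group's range, exceeded Dixon's critical value for 4 or 5 tumors. Chance alone flags about 1 in 20 groups. Of the 28, 23 were among anti-PD-1-treated tumors, and 20 of these were treated tumor 2.

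Treated tumor 2 was the lowest of its group for the means of the B-cell list (a gap of 0.748 of the range), the dendritic cell list (0.863) and the CC chemokine list (0.798). It was also the lowest for the T-cell costimulatory receptor Tnfrsf18 (0.716), the lymphoid genes Ccr7 (0.804) and Ltb (0.804), the dendritic cell genes Cd209a (0.822) and Flt3 (0.872), the macrophage receptors Cd163 (0.785) and Mrc1 (0.935) and the chemokines Ccl8 (0.786) and Ccl22 (0.881). It was the highest for the mean of the hypoxia list (0.831) and for its members Ndrg1 (0.918), Bnip3 (0.752), Pgk1 (0.731) and Slc2a1 (0.858), and for Cxcl2 (0.852), Il1r2 (0.804) and the clock gene Nr1d2 (0.799). Treated tumor 3 was the highest for Cd8b1 (0.887) and Fosb (0.734) and the lowest for Dusp6 (0.781).

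Of the 5 values in untreated tumors, 4 were tumor 5, the highest for Ccl5 (0.910), Ltb (0.889) and Ccl22 (0.840) and the lowest for Cxcl2 (0.905). Untreated tumor 4 was the highest for Lep (1.000), where the other untreated tumors had 0 reads.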

How the results depend on the processing

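The number of genes past the threshold was 0 in the reported fit, 960 with tumor weights, 60 with both models in 1 fit and 0 to 80 when 1 tumor was left out. At an unadjusted p of 0.05, tumor weights gave 1889 higher and 1755 lower genes, both models in 1 fit gave 1207 and 1286, and leaving out 1 tumor gave 341 to 1464 and 339 to 1267. Without the 25% of genes with the lowest mean, 283 were higher and 573 lower at that p, against 647 and 626 in the reported fit. All treated tumors then lay above all untreated ones in 60 genes and below in 141, against 93 and 159. Leaving out 1 tumor gave 121 to 1046 genes with all treated tumors higher and 201 to 953 with all lower, counts that can only stay or rise with fewer tumors. For the difference from the chitin comparison 1 gene passed with both models in 1 fit and 0 to 1 when 1 tumor was left out, and for the difference from 66cl4 331 genes passed with tumor weights and 0 to 86 when 1 tumor was left out. The difference in mean reads per tumor lay between 137633 and 1476810. The cause of these shifts was not tested.

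Of 88 genes followed under 19 alternatives, 85 kept their direction in every alternative that held them, and 9 of 1641 values were reversed. The filter on the lowest 25% of genes removed some of the 88. Many of them had been chosen by a small p in the reported fit. The alternatives share its tumors, so a kept direction is not separate evidence. With tumor weights Cd274 was at -0.23 and Havcr2 at -0.051, and leaving out 1 tumor gave -0.18 to 0.37 for Cd274, -0.036 to 0.15 for Havcr2 and -0.51 to 0.19 for Gzmb. Of 494 list medians under alternatives, 478 moved by less than 1 SD between tumors and 16 by more.

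With the replicate number as a block 0 genes passed, and 683 were higher and 656 lower at an unadjusted p of 0.05. Deviations of same-numbered tumors correlated across genes at -0.22, 0.26, 0.093 and -0.27 for numbers 1, 2, 4 and 5, so the numbers gave no pairing. The transformed scale compresses differences of genes with few reads. On recovered reads limma-voom gave the T-cell list a median log2 fold of 1.30 against 0.58.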

Other observations

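Without anti-PD-1-treated tumor 2, the smallest p belonged to Pla2g2d, a secreted phospholipase of lymphoid tissue dendritic cells and macrophages, with a difference of 1.30 ± 0.13 (limma, adjusted p = 0.000309) against 0.94 with all 5 treated tumors. It was followed by Retnla and Ms4a1, with adjusted p of 0.00299 and 0.00334. These genes were named after their values had been seen, and tumor 2 was left out because its values stood apart.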
